A study of Homo sapiens with 6 samples.

Results

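The DLX genes DLX1, DLX2, DLX5 and DLX6, the Iroquois genes IRX3 and IRX5, and HMX2, HLX and HHEX are 9 homeobox genes, and their transcripts were measured at 14 probe sets after exposure to cortistatin A. Every probe set that the platform annotation names, or lists, for one of these genes was taken, which gave 14 of the 54613 non-control probe sets and 9 of 19777 named genes; each of the 14 names 1 gene. The genes were chosen by the log2 difference between cortistatin A and solvent seen earlier at some of their probe sets, so their levels and differences in it are given as a description, without a test.

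The cells were MOLM-14, an established line of human acute myeloid leukaemia with an MLL-AF9 rearrangement, and both groups were this 1 line. One group of 3 wells received 25 nM cortistatin A (CA), a steroid-derived natural product that blocks CDK8 and its close relative CDK19, the kinases of the Mediator complex, and the other group of 3 wells received the solvent DMSO, each for 3 h. RNA of each well was hybridised to 1 Affymetrix U133 Plus 2.0 array, and values are log2 RMA expression values per probe set. Separate cultures or days are not named in the labels, so the spread between arrays may be technical, and 3 arrays a group limit the precision.

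Homeobox genes encode transcription factors that bind DNA through a homeodomain and set up body regions and cell fates in the embryo. DLX, HMX, HLX and HHEX belong to the NKL class, and the IRX genes belong to the TALE class, whose homeodomain has an extended loop. HLX and HHEX act in blood stem and progenitor cells, whereas DLX, HMX and IRX genes are best known from the forebrain, the face, the limbs, the inner ear and the heart, and several of them are switched on in leukaemias. DLX1 lies beside DLX2, DLX5 beside DLX6, and IRX3 and IRX5 are in 1 cluster, and genes of such pairs often share enhancers.

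RefSeq promoters of assembly GRCh38.p14 matched 6 of the 9 genes; DLX5, IRX3 and IRX5 had no entry in the table. They are shown because HLX, HMX2 and DLX2 had among the larger differences described below and DLX1, DLX6 and HHEX the smaller ones. Each is given as the 150 bases that end just before the annotated start, 5′ to 3′ on the gene's strand. The windows are chr2:172085357-172085506 for DLX1, chr2:172102901-172103050 for DLX2 on the minus strand, chr7:97005403-97005552 for DLX6, chr10:123147986-123148135 for HMX2, chr1:220879293-220879442 for HLX and chr10:92689805-92689954 for HHEX, all but DLX2 on the plus strand. Capitals mark the letters CCAAT, or ATTGG where that motif lies on the other strand.
DLX1: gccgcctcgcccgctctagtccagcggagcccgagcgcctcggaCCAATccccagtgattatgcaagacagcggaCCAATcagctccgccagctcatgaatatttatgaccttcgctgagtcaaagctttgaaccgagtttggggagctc
DLX2: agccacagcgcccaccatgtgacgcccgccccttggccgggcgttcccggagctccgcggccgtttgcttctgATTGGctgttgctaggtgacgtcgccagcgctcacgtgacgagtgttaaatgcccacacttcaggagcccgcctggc
DLX6: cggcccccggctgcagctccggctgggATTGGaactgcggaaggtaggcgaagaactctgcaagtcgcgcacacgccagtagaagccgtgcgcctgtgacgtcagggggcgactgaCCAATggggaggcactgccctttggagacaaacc
HMX2: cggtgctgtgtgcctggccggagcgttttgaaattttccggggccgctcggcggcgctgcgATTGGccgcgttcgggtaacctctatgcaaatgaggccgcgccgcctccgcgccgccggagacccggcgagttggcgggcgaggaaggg
HLX: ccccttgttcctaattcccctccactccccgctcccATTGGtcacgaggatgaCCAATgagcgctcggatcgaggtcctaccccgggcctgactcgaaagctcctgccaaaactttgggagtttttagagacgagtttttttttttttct
HHEX: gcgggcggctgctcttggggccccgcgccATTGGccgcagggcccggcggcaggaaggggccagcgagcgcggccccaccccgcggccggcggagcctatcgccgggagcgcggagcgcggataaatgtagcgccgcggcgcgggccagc

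All 6 windows held CCAAT on one strand or the other, as did 23.5% of the 35116 promoter windows of the same length in the table. DLX1, DLX6 and HLX held 2 matches each and the other genes held 1. The matches in HLX began 114 and 97 bases before the start, the first on the other strand and the second on the gene's own, the one in HMX2 began 89 bases before it and the one in DLX2 77. A further 5 motifs were searched on both strands. GGGCGG was found in DLX2 and HHEX (36.8% of all windows), CACGTG in DLX2 (4.57%) and TGACGTCA in DLX6 (1.40%), while TATAAA (6.71%) and TAATTA (2.34%) were found in none of the 6. The share of G and C lay between 52.0% in HLX and 80.7% in HHEX, against a median of 60.0% over all windows, and the number of CG dinucleotides lay between 8 and 25, against a median of 7. Among these 6 genes CCAAT was present with large and with small differences alike. DLX5 and IRX5, which had large differences, had no window, and a part of the motif in the differences was not tested.

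Over all probe sets, limma put 120 of 54613 (0.22%) past a Benjamini-Hochberg adjusted p of 0.05, 116 of them higher and 4 lower in CA. CA replicate 3 stood apart from the other arrays: its score on the first principal component (31.6% of the variance) was 33.8, and those of the other 5 were -12.8 to 6.44. Of the myeloid markers, 9 of 10 measured at their brightest probe sets were above the median probe set, among them FLT3, PTPRC and LYZ, while the monocyte marker CD14 was below it; CD33 and CD68 were not analysed here. The mean log2 value of this list was 7.80 to 7.90 in the DMSO arrays and 7.88 to 8.01 in the CA arrays. CEBPA, a granulocyte and monocyte factor, was the called marker, at 1.39-fold (1.26 to 1.53, adjusted p = 0.0439 in limma), and it was not past the threshold without any one of the 6 arrays. The mean of the 5 T cell markers was 3.94 to 4.01 in DMSO and 3.86 to 4.16 in CA, with 4 of them below the median probe set. The 4 B cell markers had means of 6.10 to 6.22 and 6.03 to 6.18, the 4 erythroid and megakaryocyte markers 5.83 to 5.995 and 5.80 to 6.12, and the 7 epithelial and fibroblast markers 5.46 to 5.59 and 5.41 to 5.62. At their brightest probe sets 1, 0 and 3 of these genes were below the median probe set. Over all their probe sets, 8 of 12, 4 of 11 and 17 of 22 were below it. Of 10 genes of tissues other than blood, 5 were below it at their brightest probe sets. The B cell factor PAX5 (221969_at) read 9.54 in DMSO, the highest of the 12 B cell probe sets. No marker of these lists was called in limma, and their part in the members' values was not tested.

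The members fell into a group with differences of at least 1.5-fold and a group with small ones. HMX2, DLX2, IRX5, HLX and DLX5 were each at least 1.5-fold higher in CA at 1 probe set, as were 0.181% of all probe sets, and the 5 folds lay between 1.505 and 1.65. Of the 14 probe sets, 4 were past the adjusted threshold, those of HMX2, IRX5, HLX and DLX5, against 0.212% of all probe sets called higher. With any single one of the 6 arrays left out, 0 of the 14 were past it, and among all probe sets the number then was 0 to 6. These 14 were chosen with this comparison in view, so nothing is read from that count. In 9 of the 14 the 3 CA values all lay above the 3 DMSO values, against 8.96% of all probe sets, in 5 the groups overlapped, and in 0 did CA lie below. The median log2 difference of the 14 was 0.20, beside -0.0011 for all probe sets.

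**Figure D1:**
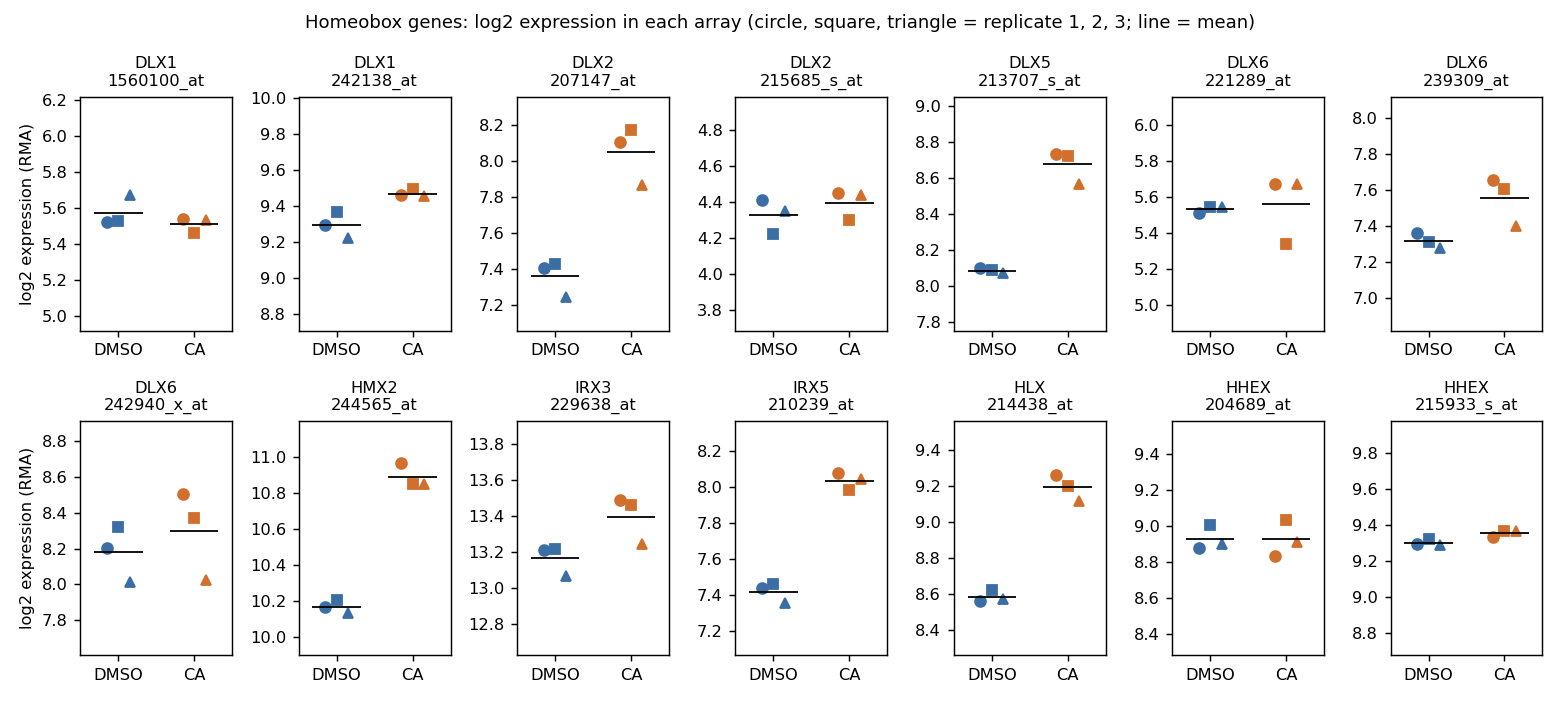
Log2 expression (RMA) of each member probe set in the 3 DMSO and 3 CA arrays, with the replicate as circle (1), square (2) or triangle (3) and the group mean as a line; each panel spans the same log2 range. The CA points stand clear of the DMSO points for DLX2 (207147_at), DLX5, HMX2, IRX5 and HLX, and mix with them for DLX1 at 1560100_at and HHEX at 204689_at.

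HMX2, a factor of inner ear and hypothalamus development, had the largest difference of the 14. Its probe set 244565_at read 10.16, 10.20 and 10.13 in the DMSO arrays and 10.96, 10.85 and 10.85 in the CA arrays. All 3 CA values lay above all DMSO values, with 0.64 between the nearest pair, the widest gap among the members. The means were 10.17 ± 0.04 and 10.89 ± 0.07 (SD, n = 3 each), a difference of 0.72 ± 0.06 (SE) on the log2 scale or 1.65-fold (95% confidence interval 1.49 to 1.82). This was the rise of rank 30 among all 54613 probe sets.

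HLX, which promotes the growth and restrains the maturation of blood progenitors, was also higher in each CA array. Probe set 214438_at read 8.56, 8.62 and 8.57 in DMSO and 9.26, 9.20 and 9.12 in CA, so the groups did not overlap. The difference of the means, 8.58 ± 0.03 and 9.19 ± 0.07 (SD, n = 3 each), was 0.61 ± 0.06 (SE), or 1.53-fold (1.38 to 1.69). HHEX, the other blood factor of the set, which is needed for early blood and endothelial development and for definitive progenitors, stood differently. Its probe set 204689_at read 8.88, 9.01 and 8.90 in DMSO and 8.84, 9.03 and 8.91 in CA, with the groups overlapping, and the ratio was 0.999 (0.886 to 1.13). Its second probe set, 215933_s_at, read 9.29, 9.32 and 9.29 in DMSO and 9.33, 9.37 and 9.37 in CA. There the CA values lay above the DMSO values by 0.011 at the nearest pair, and the ratio was 1.04 (0.954 to 1.13). Both intervals for HHEX end below the lower bound for HLX. The genes were chosen by this difference, so that is a description, and HLX and HHEX were not tested against each other.

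In the Iroquois cluster the genes IRX5 and IRX3, which pattern heart, limb and nervous tissue, differed by unequal amounts. IRX5 (210239_at) read 7.44, 7.46 and 7.36 in DMSO and 8.08, 7.98 and 8.05 in CA, clear of each other by 0.52. Its difference was 0.62 ± 0.06 (SE), or 1.53-fold (1.39 to 1.69), and it was the one member of the 5 with large differences, beside HMX2, in which CA replicate 3 was not the lowest CA value. IRX3 (229638_at) read 13.21, 13.22 and 13.07 in DMSO and 13.49, 13.46 and 13.24 in CA. These groups are apart by 0.022, between DMSO replicate 2 and CA replicate 3, and the ratio was 1.17 (1.02 to 1.35). The IRX3 probe set was brighter than 99.4% of all probe sets in DMSO, and whether its signal was close to the upper end of the scale was not tested. Without CA replicate 3 its ratio was 1.24.

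DLX genes control neurons of the forebrain and the skeleton of face and limbs, and in each of their 2 pairs 1 member had the larger difference. DLX2 (207147_at) read 7.40, 7.43 and 7.24 in DMSO and 8.11, 8.17 and 7.87 in CA, without overlap. Its difference of 0.69 ± 0.10 (SE), or 1.61-fold (1.38 to 1.89), had the second largest size and the widest interval of the 5. With a larger spread than the other 4, it was not past the adjusted threshold here, but it was with array weights, without dim probe sets, with an intensity trend and with 1 probe set per gene, where 5 of the 9 members were called against 0.839% of all genes called higher. A second DLX2 probe set, 215685_s_at, was dimmer than the median probe set. Its means were 4.33 in DMSO and 4.39 in CA, and its ratio was 1.05 (0.926 to 1.18).

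DLX1, the neighbour of DLX2, had small differences. Its brighter probe set 242138_at read 9.29, 9.36 and 9.22 in DMSO and 9.46, 9.49 and 9.45 in CA. The groups were apart by 0.088, and the ratio was 1.13 (1.02 to 1.24). Its upper bound was below the lower bound for DLX2, but the genes were not tested against each other. At the other, 1560100_at, the groups overlapped, with means of 5.57 ± 0.09 in DMSO and 5.51 ± 0.04 in CA (SD, n = 3 each) and a ratio of 0.957 (0.860 to 1.07).

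In the second DLX pair it was DLX5, a factor of bone formation, that had the larger difference. Probe set 213707_s_at read 8.10, 8.09 and 8.07 in DMSO, the tightest group of all 14, and 8.74, 8.72 and 8.57 in CA. The groups were apart by 0.47, and the difference was 0.59 ± 0.07 (SE), or 1.505-fold (1.35 to 1.67). DLX6, its partner in limb and jaw development, was measured at 3 probe sets. At 239309_at the values were 7.36, 7.31 and 7.28 in DMSO and 7.66, 7.60 and 7.40 in CA, with the groups apart by 0.036 and a ratio of 1.18 (1.03 to 1.34). At 242940_x_at, a type that can share sequence with other transcripts, they were 8.20, 8.32 and 8.02 against 8.50, 8.37 and 8.02, which overlap, with a ratio of 1.09 (0.870 to 1.35). At 221289_at they were 5.51, 5.55 and 5.54 against 5.68, 5.34 and 5.67, also overlapping, with a ratio of 1.02 (0.870 to 1.20). Probe sets of 1 gene gave unlike ratios for DLX2, whose intervals do not overlap, while the intervals overlap for DLX1 and for DLX6. The sources used here do not say which transcripts each probe set detects.

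**Figure D2:**
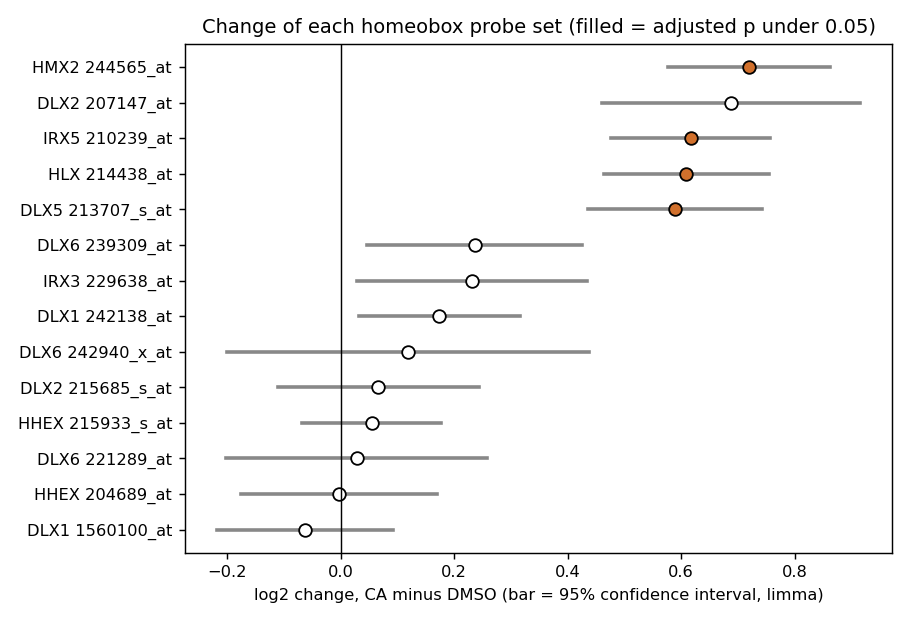
Log2 change (CA minus DMSO) of the 14 member probe sets with 95% confidence intervals from limma, filled where the adjusted p was under 0.05. The upper 5 probe sets lie between 0.59 and 0.72, and the other 9 lie between -0.063 and 0.24.

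The dimmest readings may carry little information on these genes. In DMSO the probe sets 215685_s_at of DLX2, 1560100_at of DLX1 and 221289_at of DLX6 had means within the range of 2.59 to 5.58 seen at 16 probe sets of genes such as ALB and GCG, which are made in tissues other than blood, while the other 11 lay above it. The DLX1 and DLX6 readings, at 5.57 and 5.53, were at the upper end of this range and above the median probe set. Probe sets of other genes named below were in the range too, among them IRX4 (3.96), TLE4 214688_at (4.70) and VEGFA 211527_x_at (5.36). NOG (5.60) was just above it. Probes differ in how strongly they bind, so levels at different probe sets are not compared as amounts of RNA.

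Which replicate was lowest in each group was counted for the members. DMSO replicate 3 was the lowest DMSO value in 8 of the 9 genes at their brightest probe sets, the exception being HLX, and CA replicate 3 was the lowest CA value in 6 of the 9, the exceptions being HMX2, IRX5 and HHEX. Over all 14 probe sets these numbers were 9 and 7. Over the whole array DMSO replicate 3 was the lowest DMSO value in 34.5% of probe sets. CA replicate 3 was the lowest CA value in 36.1% of all probe sets, and in 58.6% of those at least 1.5-fold higher in CA. Of the 5 member probe sets at least 1.5-fold higher, it was the lowest CA value in 3. The part of this array in the members' differences was measured by leaving it out. The ratio then was 1.72 for DLX2, 1.67 for HMX2, 1.57 for HLX, 1.56 for DLX5 and 1.53 for IRX5, so each was about as large or larger without it. For DLX6 (242940_x_at) the log2 difference was 0.26 without CA replicate 3 and 0.12 with it, and it ranged from 0.017 to 0.26 as each array was left out.

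**Figure D3:**
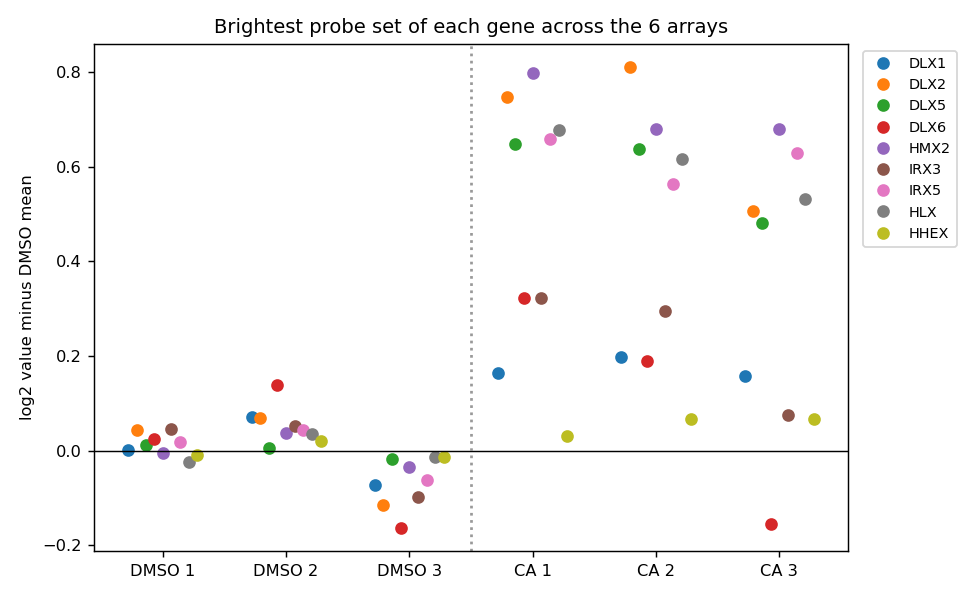
Log2 value minus the DMSO mean for the brightest probe set of each gene, by array. In the CA arrays DLX2, HMX2, HLX, IRX5 and DLX5 lie in an upper band and DLX1 and HHEX lie at or below 0.20; DLX6 and IRX3 drop towards or below 0 in CA replicate 3.

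The members past the threshold had similar patterns over the 6 arrays. Likeness was taken as the root mean square difference of log2 values after the DMSO mean was subtracted, over 6 arrays and against 19776 other genes at their brightest probe sets. For DLX5 the most similar gene of all was HLX (0.032), followed by ADM (0.034), which encodes adrenomedullin, and BCL2L11 (0.040), which promotes apoptosis. For HLX it was BCL2L11 (0.024), then DLX5 (0.032) and RNF24 (0.042). For IRX5 the nearest were IRS2 (0.043), an adaptor of the insulin receptor, ANXA2R-OT1 (0.048) and RNF24 (0.049), and for HMX2 they were SMIM3 (0.050), TYRP1 (0.053) and IRF1 (0.055). The distance between DLX5 and HMX2, the least similar pair of the 4, was 0.10. Genes with a similar difference between the groups are near each other by construction.

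Further homeobox genes were taken as lists. Of 69 probe sets of 42 further homeobox genes of the NKL and TALE classes, 0 were called in limma, against 0.22% of all. Without an adjustment 4 were higher and 5 were lower at p under 0.05 in limma, where 4.91% and 3.71% of all probe sets were. At least 1.5-fold higher were 0 of the 69, against 0.181% of all probe sets. With shares this low, a count of 0 in a list of this size says little. The 42 genes included the paralogs DLX3, DLX4, HMX1, IRX1, IRX2 and IRX4 with 8 probe sets. Of these 8, 0 were called and 0 had an unadjusted p under 0.05 in limma. HMX1 (207353_s_at) had a ratio of 1.08 (0.979 to 1.19, adjusted p = 0.655 in limma), DLX4 (208216_at) of 0.932 (0.844 to 1.03, adjusted p = 0.687) and IRX4 (220225_at) of 1.16 (0.948 to 1.43, adjusted p = 0.676). The paralogs were dim, with 5 of 8 probe sets below the median probe set, against 1 of 14 for the members. The median log2 difference was -0.032 for the paralogs, beside -0.0011 for all probe sets; HMX3 and IRX6 were not analysed here.

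Apart from the paralogs, the NKL and TALE genes were counted separately. Of 33 probe sets of 25 NKL genes, 0 were called in limma and 2, both of MSX2, a repressor in limb and skull development, were lower at an unadjusted p under 0.05. The MSX2 ratios were 0.874 (210319_x_at, adjusted p = 0.504) and 0.898 (205555_s_at, adjusted p = 0.531). Of 28 probe sets of 11 TALE genes, 0 were called in limma, with 4 higher and 3 lower before adjustment (p under 0.05). PBX3, a cofactor of HOX proteins, had the smallest p, with 10.16 ± 0.03 in DMSO and 10.52 ± 0.03 in CA (SD, n = 3 each) and a ratio of 1.29 (1.18 to 1.41, adjusted p = 0.0765). It passed with 1 probe set per gene, with an intensity trend and without dim probe sets. MEIS1 (204069_at), another cofactor of HOX proteins, had a ratio of 1.18 (1.08 to 1.29, adjusted p = 0.272) and passed with an intensity trend. PKNOX1 (204195_s_at) had a ratio of 0.865 (adjusted p = 0.407).

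**Figure D4:**
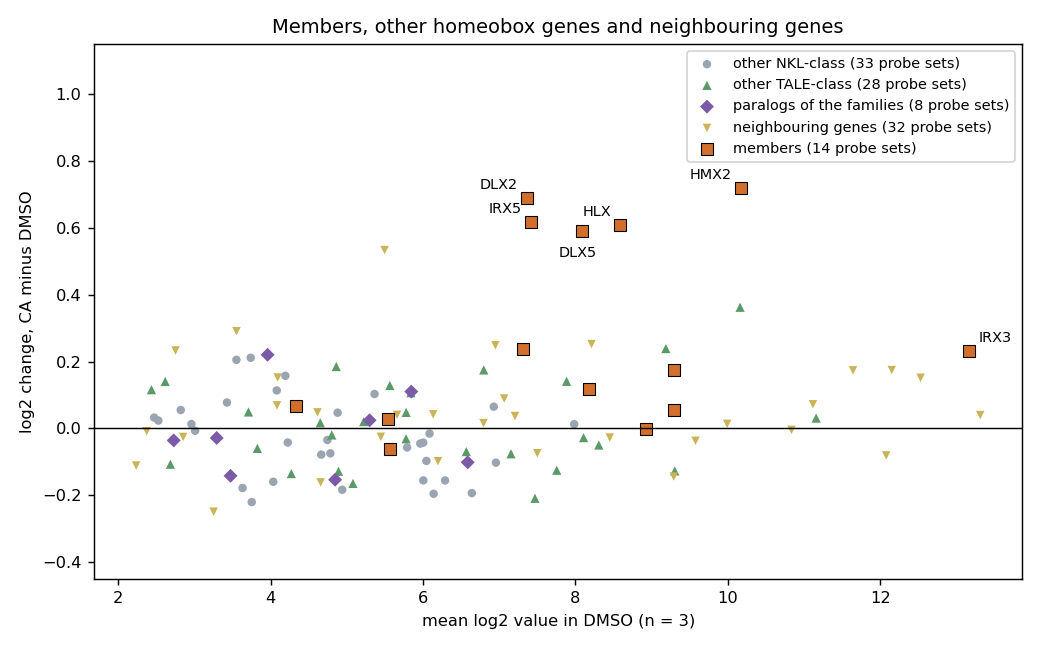
Log2 change (CA minus DMSO) against the mean log2 value in DMSO for probe sets of the members, of other homeobox genes and of genes next to the members. HMX2, DLX2, IRX5, HLX and DLX5 lie at or above 0.59; the paralogs of the same families lie between -0.15 and 0.22.

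Genes beside the members on the chromosomes were looked at as well. The nearest measured genes on each side, and those overlapping a member, gave 15 genes that are not members, with 32 probe sets. Of these 0 were called in limma, against 0.22% of all probe sets, and the median log2 difference of the 32 was 0.038. Before adjustment 7 were higher and 0 lower (p under 0.05, beside 4.91% and 3.71% of all probe sets). The 7 were probe sets of BUB3, DUSP10, ITGA6 and LINC02140, and most of them belonged to BUB3 and DUSP10. CRNDE, a long non-coding RNA next to IRX5, had log2 differences of -0.081 and 0.014 at its 2 probe sets (adjusted p = 0.801 and 0.970 in limma). FTO, next to IRX3, had -0.028 (adjusted p = 0.915). LINC02140, on the other side of IRX3, had 0.29 (adjusted p = 0.502 in limma) at a probe set dimmer than the median one. Next to HLX, DUSP10, a phosphatase of stress kinases, had 0.25 at each of 2 probe sets (adjusted p = 0.273 and 0.405). Beside HMX2, ACADSB and BUB3, a mitotic checkpoint gene, had log2 differences between -0.074 and 0.17. DLX6-AS1, which overlaps DLX6, had a log2 difference of -0.025 (adjusted p = 0.963 in limma). ITGA6, an integrin subunit next to DLX2, had 0.53 at 201656_at and 0.048 at 215177_s_at (adjusted p = 0.385 and 0.875 in limma). METAP1D, SDHAF3, SEM1, MMP2, LINC01352, EXOC6 and KIF11, the remaining neighbours, had log2 differences between -0.25 and 0.23.

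BMP signals, which induce DLX genes in skeletal and neural tissue, were represented by 17 measured genes with 45 probe sets. This list was chosen with earlier results of these data known, and a link from its genes to the DLX values was not tested. BMP2, a secreted ligand, was the one called, at 1 of the 45, against 0.22% of all probe sets. Probe set 205290_s_at rose 1.58-fold (1.43 to 1.75, adjusted p = 0.0206 in limma), from 8.53 ± 0.07 in DMSO to 9.19 ± 0.04 in CA (SD, n = 3 each). Its second probe set, 205289_at, had a ratio of 1.48 (1.26 to 1.74, adjusted p = 0.118). Without any one of the 6 arrays BMP2 was not past the threshold, with log2 changes between 0.63 and 0.70 and adjusted p between 0.0684 and 0.159. NOG, which encodes the BMP antagonist noggin, had 5.60 ± 0.13 in DMSO and 6.53 ± 0.22 in CA (SD, n = 3 each), a ratio of 1.91 (1.56 to 2.33, adjusted p = 0.0505), and it passed in 5 of the 14 alternative fits. In all, 6 of the 45 BMP probe sets were higher and 5 were lower before adjustment (p under 0.05 in limma, beside 4.91% and 3.71% of all probe sets). Those higher were of BMP2, NOG, ID2 and SMAD4, with ratios of 1.17 to 1.91. Those lower were of SMAD4, BMPR2, SMAD6, ACVR1 and ID3, with ratios of 0.803 to 0.847. The higher SMAD4 probe set, 1565702_at, was dim, at 2.54 in DMSO. At the brightest one of SMAD4, 202527_s_at, the ratio was 0.916 (0.805 to 1.04). The other probe sets of BMPR2 and SMAD6 did not have an unadjusted p under 0.05 in limma. The median log2 difference of the 45 was -0.0058.

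The Groucho corepressors of the TLE family, to which HHEX and other NKL factors bind, had 20 probe sets of 6 genes. In limma 0 were called, 6 were higher and 0 were lower before adjustment (p under 0.05; 4.91% and 3.71% of all probe sets), and the median log2 difference was 0.14, beside -0.0011 for all probe sets. TLE4 had a ratio of 1.25 (214688_at, adjusted p = 0.209) and 1.21 (204872_at, adjusted p = 0.232), and TLE3 of 1.25 (212769_at, adjusted p = 0.247). TLE4 passed at 204872_at with an intensity trend. Genes reported downstream of HLX or HHEX in blood or vessel cells had 12 probe sets of 5 genes, with 0 called in limma and 3 higher and 0 lower before adjustment (p under 0.05); PAK1 was not analysed here. BTG1, which restrains proliferation, had ratios of 1.37 (200920_s_at, adjusted p = 0.0672) and 1.27 (200921_s_at, adjusted p = 0.299), and VEGFA had 1.23 (211527_x_at, adjusted p = 0.312), but 1.11, 0.968 and 0.975 at its other probe sets, the first of them its brightest. BTG1 passed with an intensity trend, and at 200920_s_at without dim probe sets too.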

How the data were processed

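The deposited table holds log2 values, 1 per probe set and array, which the authors computed by RMA with affy, per the submitters' processing notes (versions not given in the sources used here). RMA includes background correction and quantile normalisation, which can compress differences of dim probe sets. Of 54675 probe sets, 62 controls were left out, and 41091 of the other 54613 had 1 gene symbol.

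Sample titles gave the groups. A two-sided limma fit (version 3.58.1, R 4.3.3, lmFit then eBayes, without a block) compared CA and DMSO over all non-control probe sets, adjusted by Benjamini-Hochberg, with a threshold of 0.05. An exact permutation test of a single gene, 3 against 3, reaches a two-sided p of 0.1 at best. Probe sets were matched to symbols through gene numbers of GRCh38.p14, and neighbours came from that table.

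Named were all members and, of each gene list, the called probe sets and up to 3 with the smallest p. For BMP signalling the other genes with an unadjusted p under 0.05 were named as well. The like genes and the neighbours followed a rule. The members and lists were chosen with earlier results of these data known. No positions of probe sets are given, since the files name no build. Alternatives were a replicate block, 1 probe set per gene, an intensity trend, array weights, median centring, 2 filters, a threshold of 0.01 and leaving out each array.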

Additional observations from a re-analysis of the deposited data

How the results depend on the processing

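Log2 differences of the 14 member probe sets were compared in 112 values, with array weights, median centring or 1 array left out. All 112 moved by less than 1 SD (from the mean of both groups' variances), by 0.81 SD at most. Leaving out 1 of 3 arrays cannot move them by 1 SD, and median centring shifts every probe set alike. That count therefore does not test how stable the differences are. The replicate block leaves the differences as they are. The sign turned in 6 of the 112 values, all at DLX6 221289_at (-0.028 to 0.14) and HHEX 204689_at (-0.055 to 0.044). The calls depended on the fit. Against 120 probe sets changed in CA, limma gave 740 with a robust fit and intensity trend, 398 without dim probe sets, 196 with array weights, 47 without the x_at, s_at and a_at probe sets and 5 at an adjusted p under 0.01. With 1 array left out it gave 0 to 6 (0 without DMSO replicate 1, DMSO replicate 3, CA replicate 1 or CA replicate 2, where 1991, 2117, 2714 and 2446 were higher before adjustment at p under 0.05). Of the member probe sets, 4 were called, with 0 at an adjusted p under 0.01 and 0 with any 1 array left out; the 2 filters, array weights, median centring, the trend and 1 probe set per gene gave 3 to 5. Of the other homeobox probe sets, limma called 0, but 1 with 1 probe set per gene, 2 with the trend and 1 without dim probe sets. With the replicate block limma called 1 probe set in all and 0 of the members. The labels do not state that the numbers pair the wells. Residual correlations of same-numbered arrays were 0.081, 0.19 and 0.26. CA replicate 1 had nearly the same value with DMSO replicate 2 (0.083), and the remaining pairs had -0.23 to -0.014. Whether the wells were paired is not known. Fits with fewer arrays or a block have fewer residual degrees of freedom; other causes were not tested.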
